A study of Mus musculus with 3 samples.

Results

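Transcripts of 10382 protein-coding genes were compared between 2 libraries of RAW 264.7 cells, a mouse macrophage line, treated with lipopolysaccharide (LPS, the bacterial ligand of the receptor TLR4) at 100 ng/mL for 5 h. One library is labelled with a control shRNA and the other with shRNA 2 against GIV (also called Girdin), which the gene Ccdc88a encodes. The members were the protein-coding genes with a value above 0 in all 3 libraries of the series and a mean over those libraries of at least 50 normalized counts, which left 10382 of 54331 features and of 21803 protein-coding ones. The third library, with shRNA 1 against the same gene, is given beside them, and it shares the single control with shRNA 2. Per the labels, the line has a BALB/c background and is male, the control is wild-type and both other libraries are GIV-depleted. All 3 cultures received LPS. Delivery of the shRNAs, the clonality of the cells and their number of cultures are not given in the sources used here, and 1 label spells the line's name as 267.4. With 1 library per group, no difference below has a replicate error or a test, and every statement describes these libraries only.

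Macrophages sense LPS through TLR4 on their surface, which signals through the adaptor MyD88 to NF-kB and MAP kinases, and from endosomes through TRIF to interferon beta. Interferon beta then acts back on the cell through JAK and STAT proteins to induce a second wave of genes. GIV is a large scaffold that binds G-protein alpha subunits, actin and growth-factor receptors, and the title of the series concerns its dampening of TLR4 signalling.

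The library totals lay between 47349097 and 49756670 normalized counts, and the members held between 94.2% and 94.7% of them. All 8 macrophage markers examined were present in each library, with a summed value of 452943 in the control, 343534 with shRNA 1 and 366168 with shRNA 2. Lyz2 was the largest part of the sum, at 199781 in the control and 138145 with shRNA 2. Adgre1 (7150 and 7912) and Itgam (19994 and 24136) were higher with shRNA 2 than in the control, and the other markers were lower. Fibroblast markers (6 of 6) and epithelial markers (5 of 5) were under 10 in every library, as were 7 of 8 lymphocyte and 4 of 5 neutrophil markers. The lymphocyte exception, Ms4a1, had 6.56 with the control shRNA, 8.87 with shRNA 1 and 20.2 with shRNA 2. The neutrophil exception, S100a8, had 68.8, 45.6 and 75.5. Of 6 dendritic cell markers 3 were at 0 throughout, whereas Xcr1 had 383 normalized counts with the control shRNA, 278 with shRNA 1 and 320.5 with shRNA 2. In the same order Zbtb46 had 14.7, 17.5 and 34.9, and Clec9a had 6.03, 15.4 and 1.03. Kit, a mast cell marker, had 0.551, 1.13 and 24.2 in the same order, while Cpa3 and Fcer1a were at 0 in all 3. Mitochondrial transcripts took 1.43% of the control's total and 1.14% of that labelled shRNA 2. The part of these values in the differences below was not tested. Across members, the difference of the library labelled shRNA 2 from the control increased with transcript length (Spearman correlation across genes 0.22) and decreased with GC content (-0.22). Genes are not independent replicates, and values with this trend removed are given beside the lists that lead the description.

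**Figure D1:**
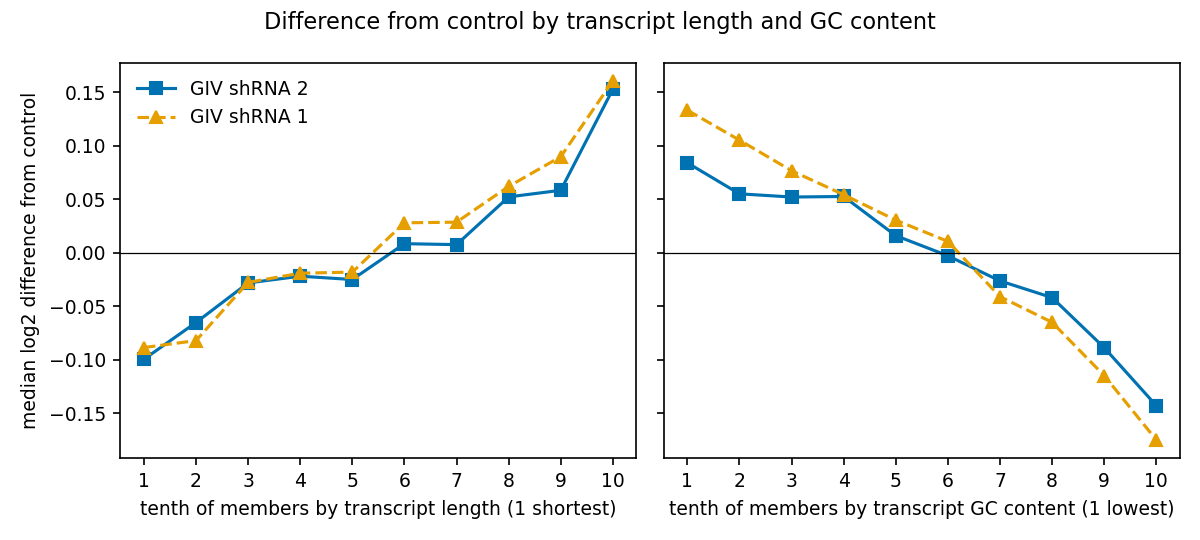
Median log2(value + 1) difference from the control (y axis) in 10 equal bins of the 10382 members ordered by the length (left) or GC content (right) of their longest transcript, for the libraries labelled shRNA 2 (squares) and shRNA 1 (triangles), which share 1 control. With shRNA 2 the median runs from -0.10 in the shortest bin to 0.15 in the longest, and from 0.08 in the bin lowest in GC to -0.14 in the highest.

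Ccdc88a (ENSMUSG00000032740.16, GRCm38 chromosome 11, 29373658 to 29510808), the targeted gene, came first. It had 2580.4 normalized counts with the control shRNA, 1734 in the shRNA 1 library and 2561 in that labelled shRNA 2. The log2(value + 1) difference from the control, the scale used throughout, was -0.01 for the library labelled shRNA 2. That library therefore does not carry less Ccdc88a mRNA than the control, which goes against its label at the level of mRNA. GIV protein was not measured in these data. The value moved to -0.20 when a trend with transcript length and GC content was removed. The paralogs Ccdc88b and Ccdc88c, which share the family's hook and coiled-coil architecture, had differences of 0.02 and 0.21. Of the G-protein alpha subunits that GIV binds, Gnai2 had 14956, 13068 and 13014 normalized counts in the order control, shRNA 1 and shRNA 2, and Gnai3 had 10307, 11326 and 10334. Triplets of values below keep this order. With shRNA 2 none of these lay 1.5-fold from the control.

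Most members had similar values in both libraries. A difference of less than 1.5-fold was found for 9321 members, or 89.8%, and the median difference was 0.0009. The middle 90% of members lay between -0.52 and 0.68. At least 2-fold higher values in the library labelled shRNA 2 were found for 259 members (2.49% of 10382), and at least 2-fold lower values for 80 (0.771%). At least 1.5-fold, the counts were 664 higher (6.4%) and 397 lower (3.82%). Differences of at least 4-fold were found for 49 higher and 12 lower members. Of the 259 higher members, 67 had a control value under 50 and reached the mean of 50 through the other libraries, so that the filter favoured a difference. The same holds for 18 of the 80 lower members, whose value with shRNA 2 was under 50. Just inside the 2-fold bound lay Prokr1 and Olr1 (1.0019 and 1.0096) among higher members and Calhm6 and Pltp (-1.0025 and -1.0055) among lower ones. Just outside lay Rpl12 and Aph1b (0.9997 and 0.9995), and Rnaset2a and Dmwd (-0.999 and -0.997). At the bound on the mean, Ccdc17 and Gm32687 were just inside, at 50.2 and 50.3, and Spata33 and Kif7 just outside, at 49.95 and 49.95. Less RNA of a gene per cell and fewer cells that express it cannot be told apart in such bulk libraries.

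**Figure D2:**
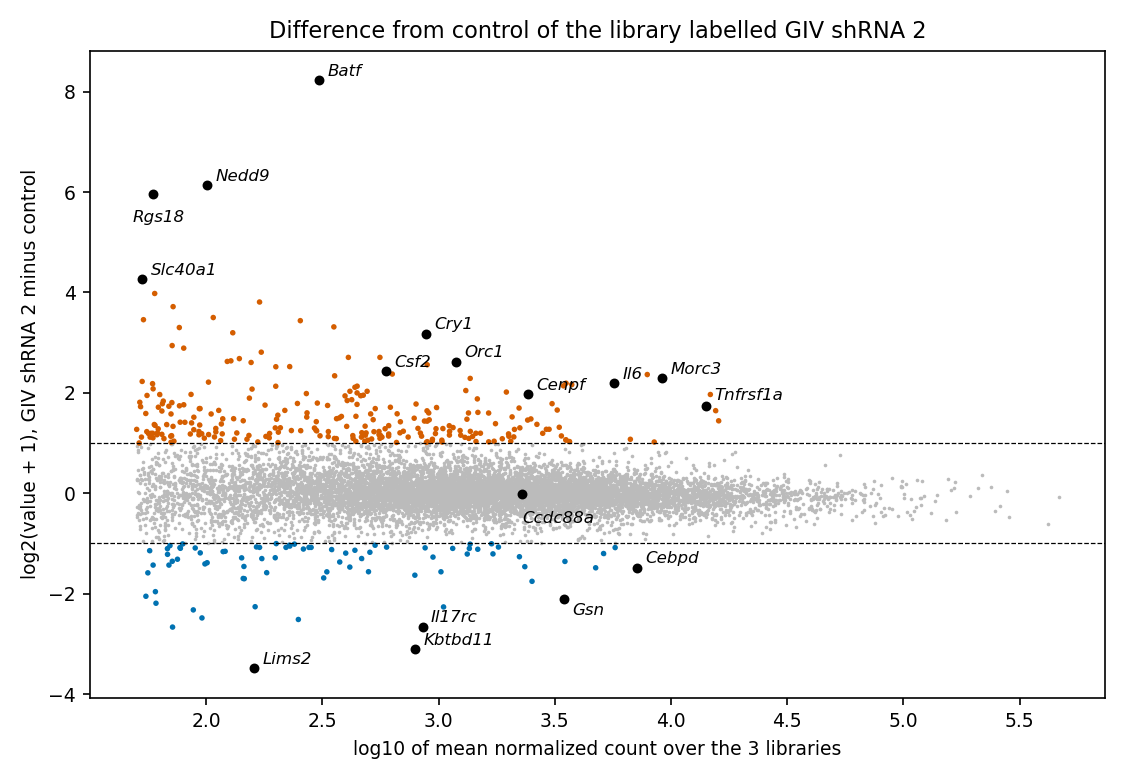
Each point is 1 of 10382 members, with the log10 of its mean normalized count over the 3 libraries (x axis) and the log2(value + 1) difference of the library labelled shRNA 2 from the control (y axis). Dashed lines mark 2-fold, with 259 members above (orange) and 80 below (blue), and named genes are in black. Ccdc88a lies at -0.01, and the highest and lowest points are Batf at 8.23 and Lims2 at -3.49.

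Members near absence in the control led the list of higher values. Batf (ENSMUSG00000034266.6, GRCm38 chromosome 12, 85686669 to 85709087), a basic leucine zipper factor that pairs with JUN proteins and cooperates with IRF4 and IRF8, had 0.932 normalized counts with the control shRNA, 339 in the shRNA 1 library and 578 in that labelled shRNA 2. Divided by the value of 1 read and rounded, these are 1 read in the control against 598 with shRNA 2. Scaled back by the value of 1 read in each library, their ratio was 620, with a 95% counting interval of 111 to 24548. The interval covers counting error alone. Such intervals were made only for members already at least 2-fold higher with at most 3 estimated control reads. They describe how uncertain the ratio is and give no evidence for a difference. Both libraries labelled GIV-depleted were far above the control for Batf. Irf4, its partner in lymphocytes and dendritic cells, had 86.1, 295 and 214 and a difference of 1.30. Batf2, by contrast, had 4766, 3302 and 3233 and a difference of -0.56. Rgs18, a GTPase-activating protein for G-alpha subunits in blood cells, had 0.933, 57.8 and 119, and the ratio made in the same way from 1 and 123 reads was 128, with an interval of 22.5 to 5081. Slc40a1, the only known cellular iron exporter, had 2.98, 80.8 and 75.7, and its ratio from 3 and 78 rounded reads was 27.0, with an interval of 8.90 to 134. For these 3 genes the library labelled shRNA 1 was high as well.

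Other members with large differences were much higher in the library labelled shRNA 2 than in both others. Nedd9, a scaffold of focal adhesions that also acts in mitotic entry, had 3.08 normalized counts with the control shRNA, 11.8 in the shRNA 1 library and 287 in that labelled shRNA 2. The ratio from 3 and 297 rounded reads, scaled as above, was 103, with a counting interval of 34.8 to 501. Rounding to whole reads makes it differ from the ratio of the values themselves. Cry1, a repressor of the circadian clock, had 230.5, 334 and 2095 and a difference of 3.18. Orc1 (ENSMUSG00000028587.18, GRCm38 chromosome 4, 108579423 to 108614833), a subunit of the complex that marks origins of replication, had 426, 525 and 2629, a difference of 2.62 against 0.30 with shRNA 1. Tnk2, a tyrosine kinase that binds CDC42, had 274, 199 and 1425. Tsku, a secreted leucine-rich repeat protein, had 17.8, 28.4 and 184. Nedd4l, a ubiquitin ligase of membrane channels, had 8.7, 19.5 and 152. The chromatin remodeller Chd9 had 1697, 1916 and 7615. For all of these genes except Tnk2, shRNA 1 also exceeded the control, at lower levels than shRNA 2. Among the members at least 2-fold from the control, Nedd9, Nedd4l, Tnk2, Tsku and Cry1 had the 5 most positive differences between shRNA 2 and shRNA 1.

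The remaining members among the 15 with the most positive differences were higher in both libraries labelled GIV-depleted, although not to the same extent. Cyfip2, a subunit of the WAVE complex that drives actin branching, had 22.7, 155 and 331 normalized counts. Osbp2, which binds oxysterols, had 9.03, 76.3 and 131, and Fam49a had 41.7, 259 and 462. The sulfotransferase Chst11, which acts in chondroitin sulfate synthesis, had 61.5, 382 and 620.2. Lyrm7, an assembly factor of respiratory complex III, had 15.1, 125 and 182, and the inner-membrane peptidase subunit Immp2l had 19.4, 39.3 and 156. Amy1 had 8.38, 50.8 and 102 and Tmem154 had 22, 159 and 210.0. Of these, only Immp2l was under 2-fold with shRNA 1. Morc3, a chromatin ATPase, had 2453, 12945 and 12100.2, the phosphatase activator Ptpa had 1877, 12181 and 9675, and the nuclear pore protein Tpr had 5397, 17843 and 21103. Tnfrsf1a, the main receptor for TNF, had 5123, 20227 and 17149, a difference of 1.74.

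**Figure D3:**
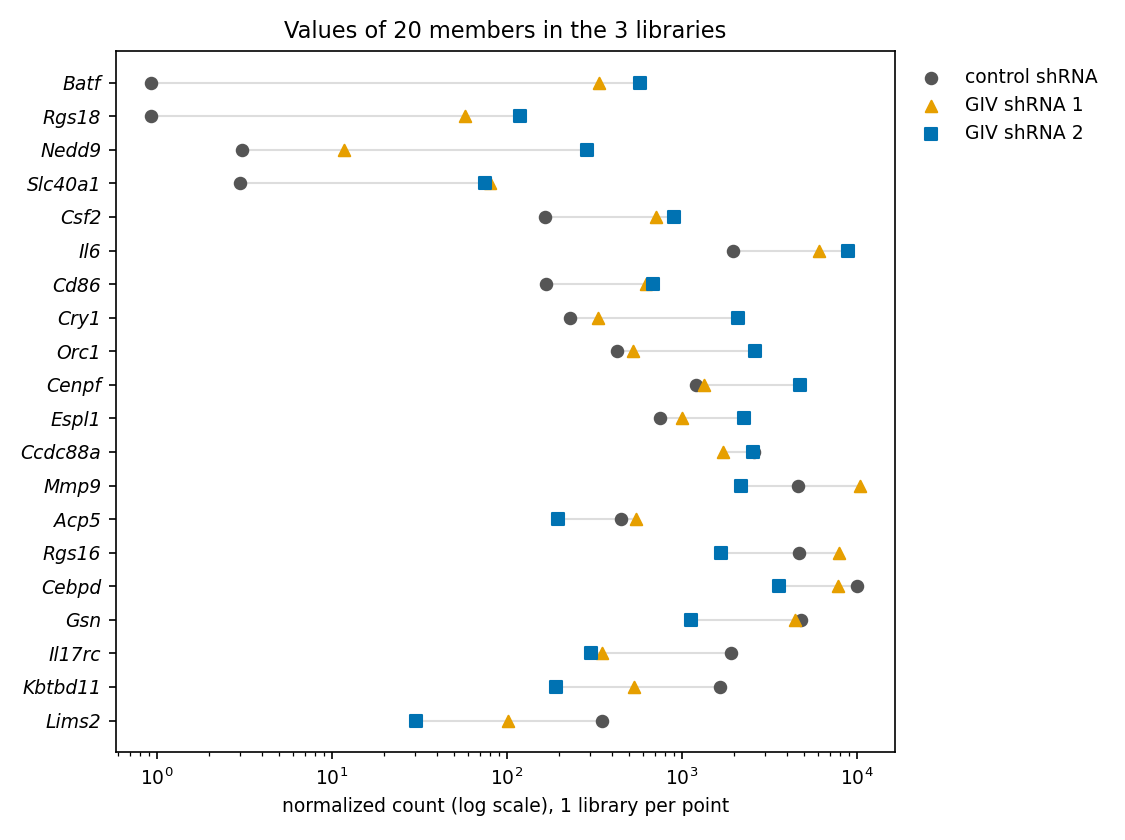
Normalized counts (x axis, log scale) of 20 members, 1 point per library, for the control (circles) and the libraries labelled shRNA 1 (triangles) and shRNA 2 (squares). Batf, Rgs18, Slc40a1, Csf2, Il6 and Cd86 are higher than the control in both other libraries, Cry1, Orc1 and Cenpf stand apart with shRNA 2, and Mmp9, Acp5 and Rgs16 are above the control with shRNA 1 and below it with shRNA 2.

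Among lower members, Lims2 and Kbtbd11 had the most negative differences. Lims2, an adaptor that joins integrin-linked kinase to the cytoskeleton, had 349.6 normalized counts with the control shRNA, 102 in the shRNA 1 library and 30.2 in that labelled shRNA 2. Kbtbd11 had 1658, 532 and 191, a difference of -3.11. Il17rc (ENSMUSG00000030281.16, GRCm38 chromosome 6, 113471427 to 113483140), a receptor subunit for interleukin 17A and 17F, had 1909, 351 and 302, and Kank3, an adaptor between talin and microtubule anchors, had 124, 32.5 and 26.3. For these 4 genes the library labelled shRNA 1 was below the control as well. Gsn, which encodes the actin-severing protein gelsolin, had 4838 normalized counts with the control shRNA, 4454 in the shRNA 1 library and 1127 in that labelled shRNA 2. Here the library labelled shRNA 1 differed from the control by -0.12 and that labelled shRNA 2 by -2.10. Vps39, a subunit of the HOPS complex of late endosomes, had 3107, 3549 and 920.5, and Sap18, part of histone deacetylase and splicing complexes, had 1030.3, 1011 and 332. Xpa, the damage sensor of nucleotide excision repair, had 258, 176 and 53.1. Fam177a had 1411, 1449 and 293, while 1700047I17Rik2, outside the members, was listed at 0, 0 and 1053. Whether reads were assigned between Fam177a and this gene was not tested, so the Fam177a difference is uncertain. Tymp, which encodes thymidine phosphorylase, had 123, 144 and 21.2, and the cytokine gene Cntf had 103, 96.8 and 15.4. The transcription factor gene Scand1 had 399.8, 279 and 69.2, the endoplasmic reticulum prolyl isomerase gene Fkbp14 had 148, 87.5 and 28.8, and Maged1 had 81.4, 64.9 and 18.9. Mylk2 had 222, 148 and 67.7. Among members at least 2-fold from the control, Tymp, Cntf, Atp6v0d2, Tnfsf8 and Fam177a had the 5 most negative differences between shRNA 2 and shRNA 1. The predicted gene Gm9803, also among the 15 lowest, had 77.6, 84.7 and 19.2.

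Genes induced by interferon had slightly lower values almost throughout the list. The lists below keep only genes that are members, such as 81 of 84 interferon-response genes, 16 of 19 interferon-induced GTPases, 76 of 77 mitosis genes and 29 of 38 cytokines. Of 81 interferon-response members, 76 were below the control in the library labelled shRNA 2, against 5177 of all 10382 members. The median difference was -0.36, against 0.0009 over all members, and 7 of the 81 were at least 1.5-fold lower, against 3.82% of all members. The library labelled shRNA 1 had a median of -0.06. Irf1, a transcription factor that primes this programme, had 5652, 3925 and 3718 normalized counts, a difference of -0.60. Irf7, the factor that amplifies interferon output, had 84936, 74214 and 62145. Ifit1, an inhibitor of translation of foreign RNA, had 93049, 84942 and 67605, and Isg15, a ubiquitin-like modifier, had 37285, 36637 and 29958. Each of these was lowest in the library labelled shRNA 2. Ifi27l2a had 7051, 6864 and 4022 and Ifit1bl1 had 6138, 5739 and 3545, the most negative differences of the list at -0.81 and -0.79. Ms4a4c had 5695, 4637 and 3715 and Ifi205 had 3189, 2738 and 2073. Reads of the Ifi200 and Ifit families can be split among near-identical copies, so single members are uncertain.

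The 5 members of that list above the control were Ifnb1, Cxcl9, Sp140, Pml and Irf8. Ifnb1, which encodes interferon beta itself, had 619.6 normalized counts with the control shRNA, 1338 in the shRNA 1 library and 1385 in that labelled shRNA 2, a difference of 1.16. Cxcl9 had 176, 131 and 217, and the other 3 differed by 0.11 or less. The ligand was thus higher while most genes of the response were lower in the same library. Socs1, a feedback inhibitor of the receptor's kinases that interferon induces, had 514, 290.2 and 236, a difference of -1.12.

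Interferon-induced GTPases, which attack vacuoles that hold pathogens, were all on the same side. All 16 members were below the control in the library labelled shRNA 2, with a median of -0.49 and differences from -0.82 to -0.04, and 5 were at least 1.5-fold lower, against 3.82% of all members. The median for the library labelled shRNA 1 was -0.10. Tgtp2 had 9782, 8078 and 5554, Iigp1 had 5437, 4297 and 3275 and Igtp had 21451, 18862 and 14186 normalized counts. Among guanylate-binding proteins Gbp2 had 17066, 15879 and 12092 and Gbp5 had 18627, 16981 and 14427, and Gbp10 lay nearest to the control at 625, 629 and 608. Tgtp1 and Tgtp2 are near-identical copies.

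Presentation on MHC class I, the route that shows peptides of the cell's own cytosol to CD8 T cells, also had mostly lower values. Of 23 members 20 were below the control, 7 of them at least 1.5-fold (3.82% of all members), with a median of -0.40 (-0.22 for the library labelled shRNA 1). The immunoproteasome subunits Psmb8, Psmb9 and Psmb10, which cut the peptides, differed by -0.63, -0.62 and -0.53. The transporter subunit gene Tap1 had 23768, 17564 and 14131 normalized counts, and its partner Tap2 had 7697, 7543 and 6054. The heavy chain H2-K1 had 33614, 27781 and 22669. H2-D1, another heavy chain, had 90579.6, 76800.4 and 59703. H2-Q4, one of several near-identical Q genes, had 13227, 9979 and 7529. B2m, the light chain, had 76682, 83487 and 65478 and was lower by less. The 3 members above the control, Calr, Erap1 and Pdia3, differed by 0.05 or less. With the trend of length and GC content removed, the medians of these 3 lists were -0.36, -0.52 and -0.38.

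Promoters were searched for the core of the interferon-stimulated response element, GAAA, any 2 bases and GAAA, on both strands. In windows from 250 bases before to 50 after the start of transcription (RefSeq, GRCm38.p6), 30 of 67 interferon-response members with a promoter held it, or 44.8%. Among the GTPases 10 of 11 did, and 5 of 19 in the class I list, against 344 of 8312 members (4.14%) and 1079 of 27025 genes (3.99%). Within the interferon-response list, the median difference was -0.32 for the 30 members that hold the core and -0.31 for the 37 that do not. Members at least 1.5-fold lower held it in 6.62% of promoters, and those at least 1.5-fold higher in 3.03%. A match describes the letters only. The 150 bases before the start are printed for the 2 members of the list with the most negative differences among those with a match, with the matched bases in capitals.
Ifit1bl1 (chr19:34601969-34602118, minus strand): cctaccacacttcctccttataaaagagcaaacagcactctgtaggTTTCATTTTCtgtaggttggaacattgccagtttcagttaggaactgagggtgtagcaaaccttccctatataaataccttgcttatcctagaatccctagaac
Ifi205 (chr1:174031756-174031905, minus strand): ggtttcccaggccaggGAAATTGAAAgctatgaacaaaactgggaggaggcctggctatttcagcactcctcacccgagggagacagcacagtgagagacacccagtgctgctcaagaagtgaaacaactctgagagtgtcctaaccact
In Ifit1bl1 the core begins 104 bases before the start and reads on the opposite strand, and in Ifi205 it begins 134 bases before the start. Ifi205 holds another match, on the opposite strand, at base 24 after the start, outside the printed bases.

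**Figure D4:**
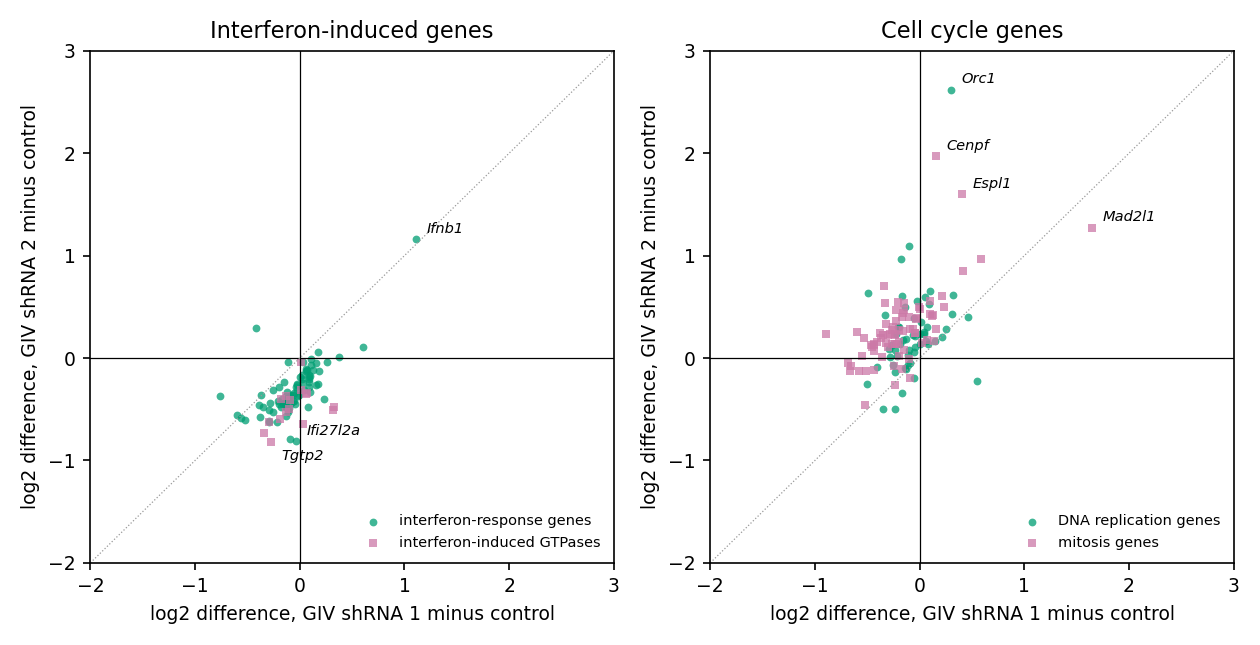
Differences from the control, as log2(value + 1), for the library labelled shRNA 1 (x axis) and that labelled shRNA 2 (y axis), with 1 point per member, for interferon-induced genes (left) and cell cycle genes (right). Both axes share the same control library, so points near the dotted diagonal are no independent agreement. On the left 76 of 81 interferon-response members and all 16 GTPases lie below 0 on the y axis, and on the right 43 of 56 replication and 64 of 76 mitosis members lie above 0.

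Cell cycle genes had higher values in the library labelled shRNA 2. Of 76 mitosis members 64 were above the control, with a median of 0.23, and of 56 DNA replication members 43 were, with a median of 0.18. The library labelled shRNA 1 had medians of -0.22 and -0.10 for these lists. Most single differences were small. In the mitosis list 3 members were at least 2-fold and 7 at least 1.5-fold higher, and in the replication list 2 and 8. Over all members the shares were 2.49% at 2-fold and 6.4% at 1.5-fold. Cenpf (ENSMUSG00000026605.14, GRCm38 chromosome 1, 189640606 to 189688086), a large protein of the kinetochore and nuclear matrix, had 1212 normalized counts with the control shRNA, 1346 in the shRNA 1 library and 4754 in that labelled shRNA 2. Espl1, the protease separase that frees sister chromatids, had 753, 999 and 2284, and Mad2l1, of the spindle checkpoint, had 972, 3044 and 2349. Mki67, the marker of cycling cells, had 7573, 7548 and 10703, a difference of 0.50. Mybl2, a transcription factor that drives genes of G2 phase, had 757, 1137 and 1481.

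The helicase subunit gene Mcm2 had 3232, 2927 and 4554 normalized counts and the ribonucleotide reductase subunit gene Rrm2 had 2064, 1835 and 3147. Chaf1b, which loads histones behind the fork, had 263, 244 and 562, and E2f8, a repressor of the replication programme, had 364, 320.2 and 713. Pcna, the sliding clamp, had 8494, 8187 and 8821 and lay near the control. Ccnb1 also lay near it, at 4834, 3759 and 4873. Members below the control included Rfc3 at 1637, 1287 and 1156, Brca2 at 621, 526 and 441 and the securin gene Pttg1 at 2806, 2385 and 2331. In the control of G1 phase, Ccnd2, a D-type cyclin, had 329, 2864 and 1214, Rb1, the retinoblastoma protein gene, had 306, 416 and 848, and Ccnd3 had 4034, 5044 and 6123. Both Ccnd1 (15644, 18884 and 13316) and the inhibitor gene Cdkn1a (22676, 28978 and 19917) were slightly below the control. With the length and GC trend removed, the medians were 0.21 for mitosis and 0.19 for DNA replication.

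The promoters of mitotic genes often join a CCAAT box with a CHR element (TTTGAA or TTCGAA), and both strands were searched for these and the letters below. Both were found in 36 of 62 mitosis members with a promoter (58.1%), overlaps allowed, against 7.21% of members and 8.61% of all genes. The median difference was 0.26 with both elements and 0.19 without. The E2F letters TTTCCCGC or TTTGGCGC were held by 15 of 44 replication members (34.1%), against 3.84% of members, and the median was 0.08 with them and 0.23 without. The NF-kB letters, GGGA, any base and TTTCC, were in 3 of 20 cytokine promoters and in 0.529% of members. The 2 mitosis members with the most positive differences among those with both elements are printed in the same way, and the Cenpf CHR letters lie after the start, outside the printed bases.
Cenpf (chr1:189688087-189688236, minus strand): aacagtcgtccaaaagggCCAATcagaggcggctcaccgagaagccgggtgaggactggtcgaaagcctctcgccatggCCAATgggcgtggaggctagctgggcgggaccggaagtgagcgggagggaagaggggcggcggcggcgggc
Espl1 (chr15:102296143-102296292, plus strand): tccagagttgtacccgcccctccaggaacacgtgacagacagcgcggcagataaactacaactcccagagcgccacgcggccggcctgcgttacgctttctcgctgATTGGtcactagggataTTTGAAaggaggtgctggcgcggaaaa
Cenpf holds CCAAT at 132 and 71 bases before the start, and Espl1 holds the box on the opposite strand at 44 and TTTGAA at 27.

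**Figure D5:**
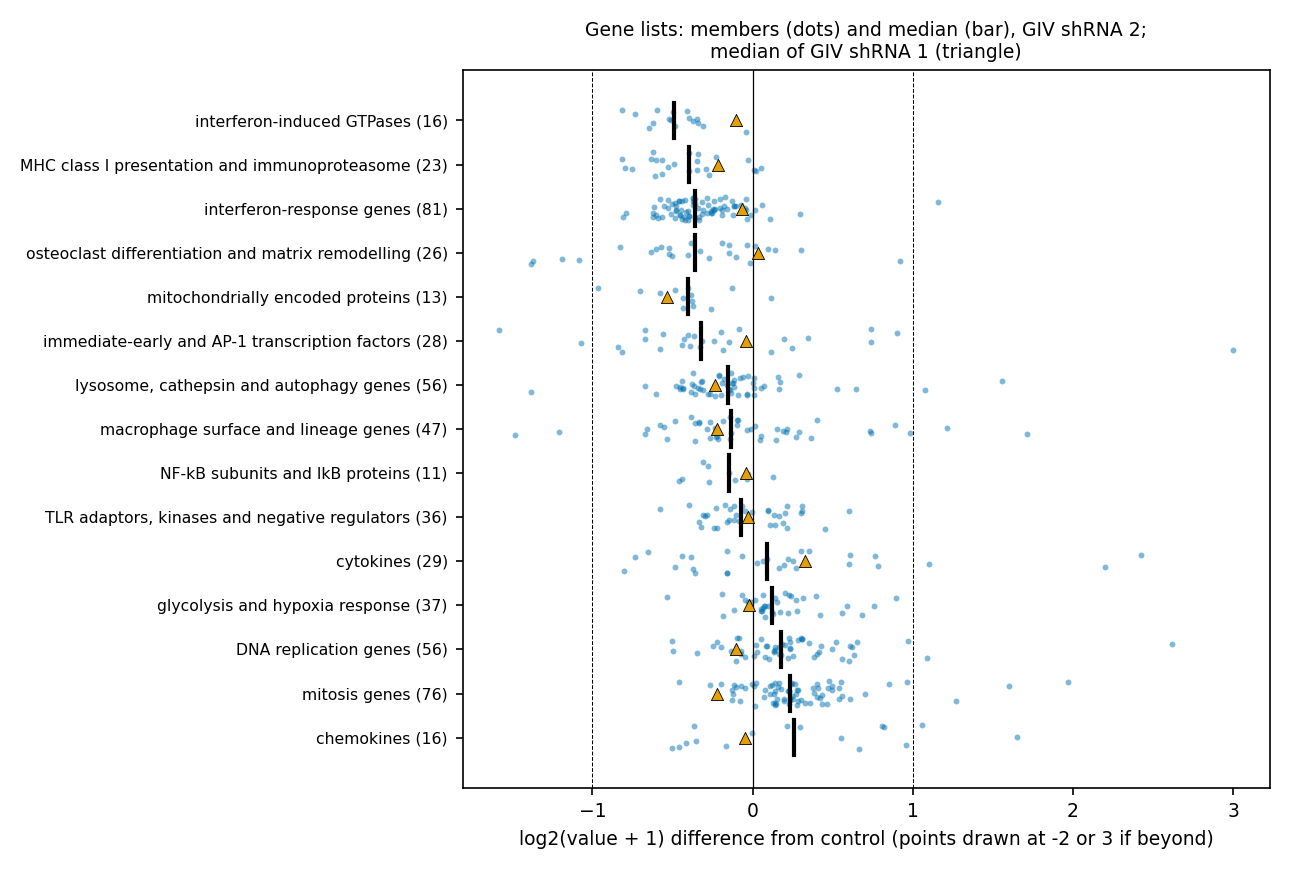
Members (dots) of 15 gene lists by their log2(value + 1) difference, library labelled shRNA 2 minus control, with the list's median (bar), the median of the library labelled shRNA 1 (triangle) and the number of members in parentheses. Dots are spread vertically for sight only, and dashed lines mark 2-fold. Medians run from -0.49 for interferon-induced GTPases to 0.26 for chemokines, and the mitosis and replication medians lie on opposite sides of 0 in the 2 libraries.

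Of 29 cytokine members, 17 were above the control and 12 below, with a median of 0.09. At least 1.5-fold, 7 were higher (6.4% of all members) and 3 lower (3.82%). At least 2-fold, 3 were higher (2.49%) and none lower (0.771%). Csf2 (ENSMUSG00000018916.5, GRCm38 chromosome 11, 54247271 to 54249667), which encodes the growth factor GM-CSF, had 166 normalized counts with the control shRNA, 714 in the shRNA 1 library and 899 in that labelled shRNA 2, a ratio of 5.38. Il6 (ENSMUSG00000025746.11, GRCm38 chromosome 5, 30013114 to 30019981), an inducer of the acute phase, had 1957, 6114 and 8985, a ratio of 4.59. Csf2 and Il6 were higher with shRNA 2 than with shRNA 1. Lta, which encodes lymphotoxin alpha, was the third at least 2-fold higher, at 116, 194 and 251. Il1b, a ligand of the IL-1 receptor, had 31161, 75964 and 52880.2. The other ligand gene, Il1a, had 10212, 27315 and 17605. Both lay closer to the control with shRNA 2 than with shRNA 1. Tnf had 35124, 41171 and 41924, a difference of 0.26. Il10, which restrains macrophage activation, had 8907, 6047 and 5109, the most negative difference of the list at -0.80. The other 2 at least 1.5-fold lower were Areg (114, 310.3 and 68) and Il15 (2316, 2057 and 1473). Cytokines that stood high with shRNA 1 alone included Lif at 3759.8, 13544 and 4637, Pdgfb at 7001, 15176 and 8036 and Tnfsf15 at 173, 2083 and 185. The list's median was 0.22 with the length and GC trend removed. It was 0.02 when all libraries were set to the same distribution of values.

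Of 16 chemokine members, 6 were at least 1.5-fold higher (6.4% of all members) and none that much lower (3.82%), with a median of 0.26. The ligands of CCR2, which draw monocytes, were above the control with shRNA 2 and below it with shRNA 1. Ccl7 had 813 normalized counts with the control shRNA, 595 in the shRNA 1 library and 1693 in that labelled shRNA 2. Ccl12 had 574, 306 and 1004 and Ccl2 had 14102, 10997 and 20716. Cx3cl1, a membrane-bound chemokine, had 34.3, 196 and 109.9, the CCR4 ligand gene Ccl17 had 105, 269.9 and 204, and Ccl22, for the same receptor, had 9279, 26578 and 14729.9. Cxcl2, which draws neutrophils, had 11279, 25465 and 19893. Below the control were Cxcl10, an interferon-induced ligand of CXCR3, at 113956, 87117 and 82837, and Ccl9 at 106767, 120807 and 82929.6. Over members with a mean of at least 200, the median of the list was 0.11.

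Of 37 cytokine and chemokine receptors, 3 were at least 2-fold higher, against 2.49% of all members. These were Tnfrsf1a, Il21r (23.5, 53 and 80.1) and the costimulatory receptor Tnfrsf9 (213, 327 and 466). Il17rc was the 1 at least 2-fold lower, against 0.771% of all members. Csf2ra, which binds GM-CSF, had 6887, 4564 and 3603. Cd86, a ligand of CD28 and CTLA-4, had 168, 623 and 688, and Icosl, the ligand of ICOS, had 229, 635 and 739. They were the 2 of 12 MHC class II and costimulation members at least 2-fold higher, against 2.49% of all members. Cd80 had 1980.0, 3568 and 2983 and Cd40 had 24350.1, 23873 and 19105.

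The receptors and signalling proteins upstream of these genes lay near the control. Tlr4 had 2440.2, 2023 and 2412 normalized counts, its co-receptor Cd14 had 119577, 122965 and 112411, and the adaptor Myd88 had 13555, 12978 and 12128. Among 19 TLRs and co-receptors, Trem3 was the 1 at least 2-fold higher (2.49% of all members), at 65.5, 41.2 and 149.8. Tlr6 had 939.5, 1047 and 1523. Tlr8 had 384, 114 and 529, with the low value in the library labelled shRNA 1. Of 36 adaptors, kinases and negative regulators, the 1 member at least 1.5-fold away was the TRIF-related adaptor gene Ticam2, at 318, 303 and 483. At 1.5-fold the shares over all members were 6.4% higher and 3.82% lower. Of 11 NF-kB subunits and IkB proteins 10 were below the control, by 0.46 at most, for Nfkbid. None of 34 members of the PI3K, AKT and small GTPase list was 1.5-fold away, against 6.4% of all members higher and 3.82% lower. In the MAP kinase list 3 of 32 were at least 1.5-fold lower, against 3.82% of all members, including the ERK phosphatase gene Dusp5, at 6707, 9218 and 4416.

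Several inducible regulators were lower in the library labelled shRNA 2 than in both others. Rgs16, which speeds the GTPase of G-alpha subunits, had 4675, 7885 and 1671, a difference of -1.48. Rgs2, of the same family, had 5839, 7012 and 2541, a difference of -1.20. Rgs18, given above, differed in the opposite direction. Cebpd, a transcription factor that LPS induces, had 10033 normalized counts with the control shRNA, 7869.9 in the shRNA 1 library and 3593 in that labelled shRNA 2. Socs3, an inhibitor of IL-6 receptor signalling, had 44836, 49717 and 29363, whereas the STAT5-induced inhibitor Cish had 245, 762 and 575. In the list of immediate-early and AP-1 factors, 20 of 28 were below the control, with a median of -0.32. Nr4a2, an orphan nuclear receptor, had 283, 169 and 94, Id1, an inhibitor of helix-loop-helix factors, had 2694, 1455 and 1282, and Junb had 22992, 18623 and 14423. In that list 4 members were at least 1.5-fold higher (6.4% of all members) and 6 at least 1.5-fold lower (3.82%). The higher ones included Batf, Id2 (293, 655 and 549.9) and Nr4a1 (148, 391 and 248). Hspa1b, a heat-inducible HSP70 gene with a near-identical neighbour, had 4249, 4590.5 and 1657.

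The osteoclast and matrix list, which covers fusion and bone-resorbing genes of the macrophage lineage, was lower in the library labelled shRNA 2. Its median over 26 members was -0.36, with 4 at least 2-fold lower (0.771% of all members) and 7 at least 1.5-fold lower (3.82%), and that of the library labelled shRNA 1 was 0.03. Mmp9, a secreted gelatinase, had 4632 normalized counts with the control shRNA, 10440.3 in the shRNA 1 library and 2188 in that labelled shRNA 2. Atp6v0d2, a proton pump subunit of osteoclasts, had 87, 183 and 32.7, and Acp5, the tartrate-resistant phosphatase, had 450.4, 549 and 197. These 3 were above the control with shRNA 1 and below it with shRNA 2. The kinase gene Src had 2487, 3211 and 1402 and the matrix protein gene Spp1 had 489970.1, 451746 and 321994. Col18a1 was the fourth at least 2-fold lower, at 690.3, 170.2 and 267, and was below the control in both libraries. Mmp13 was above the control in both, at 69.2, 129 and 132.

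Among macrophage surface and lineage genes 29 of 47 were below the control, with a median of -0.13 (-0.22 for the library labelled shRNA 1). Lyz2, which encodes lysozyme, had 199781, 121997 and 138145 and the receptor for M-CSF, Csf1r, had 18776, 9476 and 15612. Csf1r was thus nearer to the control with shRNA 2 than with shRNA 1. Members above the control with shRNA 2 included the inhibitory receptor gene Pilra at 37.5, 23.9 and 125 and Cd33 at 136, 162 and 316. Cd300lf had 819, 1321 and 1623 and the Fc receptor gene Fcgr2b had 2724, 2744 and 5053. C3, the central complement protein, had 2288, 2795 and 5052, the scavenger receptor Olr1 had 165, 113 and 333, and Cp, the iron oxidase ceruloplasmin, had 1399, 2823 and 6395. Of 56 lysosome and autophagy members 43 were below the control, with a median of -0.15. Ctsl had 43533, 33255 and 27314, whereas Gpnmb, a membrane glycoprotein of stressed lysosomes, had 4815, 5114 and 10145 and the aspartic protease Ctse had 82.2, 285 and 244.

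Of 37 glycolysis and hypoxia members 29 were above the control, with a median of 0.12, and 4 were at least 1.5-fold higher, against 6.4% of all members. Slc2a3, a glucose transporter, had 1073, 1178 and 1998, and Pdk1, which diverts pyruvate from mitochondria, had 1086, 1268 and 1842. Mitochondrially encoded proteins were below the control in 12 of 13 cases, with a median of -0.40 (-0.53 with shRNA 1), and mt-Nd3 had 2437, 2084 and 1250.0. Nuclear-encoded subunits of the same complexes had a median of -0.04 over 75 members, with Cox8a lowest at 6492, 5929 and 3777. Sterol synthesis (-0.10 over 24 members), ribosomal proteins (-0.06 over 78), mitochondrial ribosomal proteins (-0.07 over 77) and the stress responses of the endoplasmic reticulum (-0.05 over 35) lay near 0, and the ribosomal, stress and nuclear-encoded subunit medians lay above 0 under another scaling or with the trend removed. The 2 ribosomal genes at least 1.5-fold higher, Rpl12 (6698, 7247 and 13394) and Rps2 (8032, 6239 and 14091), have many near-identical pseudogenes, and their values are uncertain. In prostanoid synthesis Ptgs1, the constitutive cyclooxygenase, had 12.9, 82.3 and 64 and the prostacyclin receptor gene Ptgir had 323, 696 and 971. Nos2, which makes nitric oxide in activated macrophages, had 56568, 57600.3 and 48294. Of 11 histone members, many of whose relatives make mRNA without a poly(A) tail, 10 were below the control and H2afj was lowest, at 1581, 958 and 534.

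For the remaining lists, the shares past 2-fold over all members were 2.49% higher and 0.771% lower. Among 27 partners of GIV and G-protein subunits the median was -0.08, with Rgs18 at least 2-fold higher and Rgs16 and Rgs2 at least 2-fold lower, and the alpha subunit gene Gna11 had 610.4, 381 and 379. Adhesion and cytoskeleton genes had a median of -0.06 over 56 members. In that list Plxna1, a semaphorin receptor, was at least 2-fold higher at 1909, 2143 and 4369, and the proteoglycan gene Sdc1 was at least 2-fold lower at 2102, 959 and 1041, as were Lims2 and Kank3. The inflammasome, cell death and BCL2 list had a median of -0.05 over 35 members, and its 1 member at least 2-fold higher, Bcl2a1a at 332, 623 and 811, has near-identical copies. Targets of p53 had a median of 0.09 over 21 members, and none was 2-fold away. In the LXR and lipid list (0.02 over 30), Nr1h2, which encodes LXR beta, had 1304, 2179 and 2841 and the lipid transfer protein gene Pltp had 2249, 1703 and 1119.6. Iron handling and NRF2 targets had a median of -0.04 over 31, with Slc40a1 and Cp at least 2-fold higher. The signs of the LXR and iron medians, and of those for costimulation (-0.01 over 12), PI3K (0.03 over 34) and TLRs (-0.01 over 19), differed between settings. Scavenger and uptake genes had a median of -0.18 over 25, chaperones 0.05 over 15, receptors for cytokines and chemokines -0.10 over 37, MAP kinases -0.13 over 32, and inhibitors of cytokine signalling and STATs -0.06 over 20. Of 12 dendritic cell markers in the list used here, 4 were members, with a median of 0.47 (-0.02 for the library labelled shRNA 1). Of these 4, 3 were above the control, with Irf4 at least 2-fold higher, and 1 was below it at -0.26. With a filter at a mean of at least 10, this median was 0.85. For lymphocytes 2 of 16 were members, with a median of -0.24, and the counts were 1 of 12 for neutrophils and mast cells and 0 of 14 for fibroblasts and epithelium.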

How the data were processed

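The 3 libraries of the series were used, 1 each for a control shRNA, GIV shRNA 1 and GIV shRNA 2, grouped by their titles. The deposited table holds, per gene, the authors' normalized counts, here treated as a signal. The submitters' processing notes name Salmon, DESeq, DESeq2 and GRCm38 but no version and no role. Annotation and scaling steps are not given in the sources used here. The commonest low value, about 1 read, was 0.931 in the control and 0.966 with shRNA 2. Of values under 20, between 82.3% and 83.9% were whole multiples of that step (tolerance 0.1), so read numbers are estimates. No count model was used except for the counting intervals.

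Identifiers were matched without version to GENCODE M21 (GRCm38), which named 54097 and left out 234. Differences are log2(value + 1), shRNA 2 minus control, which understates changes of low genes. They were computed with Python 3.11.15, pandas 2.3.3 and numpy 2.4.6, and the counting was tested on simulated data. Counting intervals used the Clopper-Pearson method on reads estimated as value over step and rounded, so they are approximate. The 42 gene lists, the members and the naming rule were chosen with earlier results of these data known. Named were Ccdc88a and its paralogs, the 15 highest and 15 lowest members, up to 6 members per list with the largest absolute difference, a fixed panel, and the 5 highest and 5 lowest for shRNA 2 minus shRNA 1 among members at least 2-fold from the control. Other genes were named after their values were seen, and some genes under the rule are not reported here. Where 2 identifiers shared a symbol (7 symbols), lists used the first. Alternatives covered the pseudocount, the scaling, a length and GC trend, and the filter on low values.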

Additional observations from a re-analysis of the deposited data

Results flagged for a closer look

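In 2 members the libraries labelled shRNA 1 and shRNA 2 lay at least 2-fold from the shared control in opposite directions, a difference that was not tested, since each is 1 library. Atp6v0d2, a proton pump subunit, had a log2(value + 1) difference of -1.38 with shRNA 2 and 1.07 with shRNA 1. Mmp9, a gelatinase, had -1.08 with shRNA 2 and 1.17 with shRNA 1.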

How the results depend on the processing

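The number of members at least 2-fold from the control depended on the filter on low values. It was 464 higher and 193 lower at a mean of at least 10, 162 and 45 at a mean of at least 200, and 1200 and 766 without that filter, against 259 and 80. At 1.5-fold it was 1003 and 638 at a mean of at least 10, and 2311 and 1665 without the filter, against 664 and 397. Under the 6 changes of pseudocount, scaling or length and GC trend, each of these counts stayed within 1.5 times its value, and at 2-fold they kept at least 238 of the 259 higher and 65 of the 80 lower members. Ignoring shRNA 1 in the filter, an alternative chosen after seeing the data, gave 262 higher and 79 lower. Ccdc88a moved from -0.01 to -0.20 with the length and GC trend removed. Medians kept their sign under all 9 alternatives for interferon-response genes (-0.36 to -0.27), interferon-induced GTPases (-0.52 to -0.43), the class I list (-0.46 to -0.35), DNA replication (0.16 to 0.23) and mitosis genes (0.21 to 0.29). No scaling moved the median over all members by more than 0.053. No paired analysis was possible because each group holds 1 library. Values near 1 stand for about 1 read, so ratios to such values have wide counting intervals, as for Batf and Rgs18.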

Other observations

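Among protein-coding genes outside the members, 9 were listed at 0 in the control and had at least 50 normalized counts in the library labelled shRNA 2, and 8 the other way round. The gene 1700047I17Rik2, set beside Fam177a above, had 1053 with shRNA 2 and was listed at 0 in the control and with shRNA 1. An identifier that carries the symbol Nnt had 516 in the control and 405 with shRNA 1 and was listed at 0 with shRNA 2. Another identifier of that symbol, 1 of the 259 members at least 2-fold higher, had 435 in the control, 433 with shRNA 1 and 960.4 with shRNA 2. Whether reads were assigned between these 2 identifiers was not tested, so the difference of that member, 1.14, is uncertain.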
